A study of Sus scrofa with 6 samples.

Results

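The cytosolic ribosomal protein genes described here are those whose pig symbol is RPS or RPL with a number and at most 1 further letter, together with RPSA and RPLP0 to RPLP2. Ribosomal S6 kinases were left out. The rule used names and no measured value. It found 48 of the 21280 listed protein-coding genes, 23 of the large and 25 of the small subunit. By the same rule 79 ribosomal protein symbols stand in the RefSeq gene list of the pig. Of these, 31 had no identifier matched here and were not analysed here.

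The cytosolic ribosome of an animal cell is built from a large and a small subunit, each of ribosomal RNA and a fixed set of ribosomal proteins. Most ribosomal proteins are present once per ribosome, so their mRNAs are needed in similar amounts. In mammals these mRNAs are short and abundant, and most begin with a run of pyrimidines (a TOP sequence) through which the kinase mTOR and the RNA-binding protein LARP1 control their translation together. In the brain they serve cell bodies and also ribosomes in dendrites and axons.

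The libraries came from brain tissue of 3 wild boars and from cerebrum of 3 Rongchang pigs, a Chinese domestic breed. Every animal was labelled female and 2 years old, and prefrontal cortex is the region named in the title of the study. The Rongchang data had been deposited earlier and were processed again, so breed, source and labelled tissue change together and cannot be told apart. The labels state neither treatment nor pooling, and each library is taken as 1 animal.

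Values are TPM (transcripts in every 1000000), a level scaled for transcript length, as the authors deposited them. The listed genes summed to 17.2% to 31.0% of 1000000 in wild boar and 23.5% to 40.9% in Rongchang pig, so comparisons between breeds are given on deposited TPM and after median-ratio rescaling, which removes the shift that most genes of a library share. Over all 11752 tested genes the median log2 fold change, wild boar minus Rongchang pig, was -0.41 on deposited and 0.07 on rescaled TPM, and single values are best read against these. All 9 cortical neuron markers, among them SLC17A7 and SNAP25, were above 0 in every library. Their summed level was 3498 to 4376 TPM in wild boar and 2890 to 5359 in Rongchang pig. Markers of striatum, a region below the cortex, summed to 8.71 to 15.2 TPM in wild boar and 11.4 to 89.8 TPM in Rongchang pig, with Rongchang pig 3 at 89.8 and the other 5 libraries at most at 18.4. Depth is unknown, since TPM keeps none.

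Ribosomal protein mRNAs were abundant in all 6 libraries. Of the 48 genes 46 passed the filter of at least 1 TPM in at least 3 libraries, and 30 of the 46 were above 100 TPM in every library. Mean levels over the 6 libraries ranged from 10.7 TPM for RPS27L to 811 TPM for RPS28, a span of 75.9-fold, with 31 genes between 100 and 400 TPM, 8 under 100 and 7 over 400. The median of these means was 205 TPM over the 21 tested genes of the large subunit and 188 TPM over the 25 of the small subunit. Ribosomal protein genes have many processed copies in mammalian genomes, and how reads were shared among copies is not given in the sources used here, so the level of a single gene is uncertain.

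**Figure D1:**
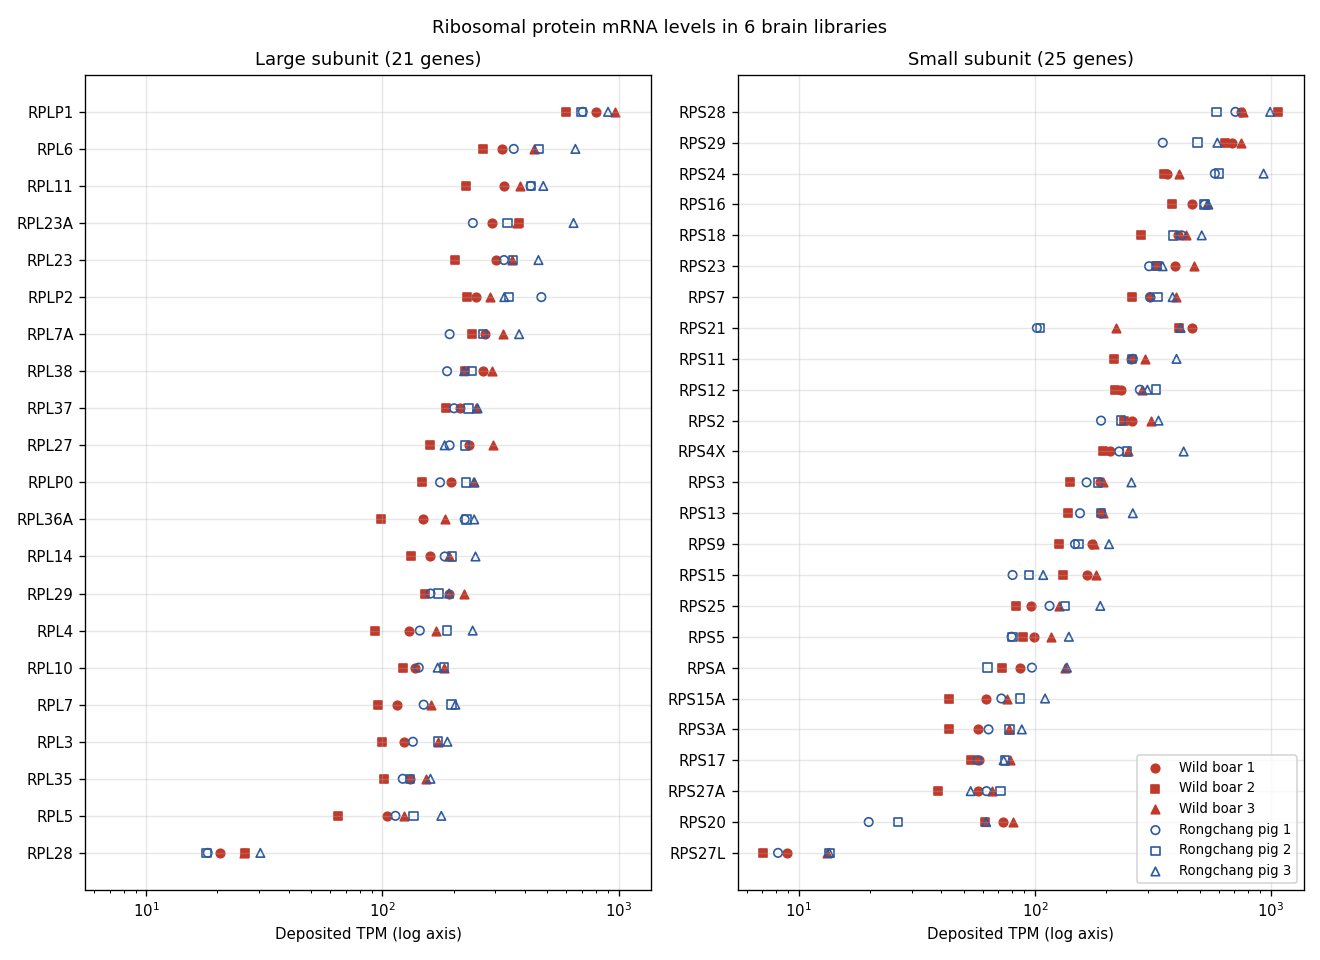
Deposited TPM (log axis) of the 46 tested ribosomal protein genes in 3 wild boar libraries (filled) and 3 Rongchang pig libraries (open), 1 point per library, split by subunit and ordered by mean level. RPS28 and RPLP1 stand at the top, RPL28 and RPS27L at the bottom, and for most genes the points of the breeds are mixed.

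RPS28, a small subunit protein near the mRNA exit, had 747, 1071 and 764 TPM in wild boar 1 to 3 and 707, 587 and 992 TPM in Rongchang pig 1 to 3. RPLP1, an acidic protein of the stalk that recruits elongation factors, had 805, 601 and 968 TPM in wild boar and 706, 697 and 903 TPM in Rongchang pig. On deposited TPM the groups overlapped for both. RPS16, which reaches the decoding site, had 465, 382 and 538 TPM in wild boar and 524, 523 and 542 TPM in Rongchang pig, where the 3 libraries lay close together. The 5 genes of the highest mean, these and RPS29 and RPS24, made 29.4% ± 2.48 of the ribosomal protein sum in wild boar and 27.1% ± 0.931 in Rongchang pig (SD, n = 3 each).

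At the low end stood RPL3L, RPL10L, RPS27L, RPL28 and RPS20, the last described with the called genes. RPL3L is the paralog of the peptidyl transferase protein RPL3 that striated muscle uses in mouse and human. It had 0.213, 0.202 and 0.240 TPM in wild boar and 0.214, 0.341 and 0.317 TPM in Rongchang pig, while RPL3 had 131 ± 36.8 TPM in wild boar and 165 ± 27.6 TPM in Rongchang pig (SD, n = 3 each). RPL10L, a testis-expressed relative of RPL10 in mouse and human, had 0.319, 0.0511 and 1.82 TPM in wild boar and was listed at 0 in every Rongchang library, while RPL10 had 147 ± 30.9 TPM in wild boar and 165 ± 20.7 TPM in Rongchang pig. Both relatives were far below the core gene in every library. RPL3L and RPL10L did not pass the filter and were not tested. RPS27L, a relative of RPS27 that p53 induces in human cells, had 9.68 ± 3.09 TPM in wild boar and 11.7 ± 3.06 in Rongchang pig (SD, n = 3 each). RPL28, a core protein of the large subunit, had 20.6, 26.1 and 25.8 TPM in wild boar and 18.2, 18.0 and 30.4 TPM in Rongchang pig.

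The summed level of the 48 genes varied less between libraries than the protein-coding total. It was 10826, 9457 and 12412 TPM in wild boar 1 to 3 and 10237, 11088 and 14472 TPM in Rongchang pig 1 to 3, so the highest library had 1.53 times the lowest, against 2.38 times for the protein-coding total. The groups overlapped, at 10899 ± 1479 TPM in wild boar and 11932 ± 2240 in Rongchang pig (SD, n = 3 each). As a share of the protein-coding total the ribosomal protein sum was 4.68%, 5.51% and 4.0% in wild boar and 4.36%, 3.11% and 3.54% in Rongchang pig. The groups overlapped here too. Wild boar 2, the library of the lowest protein-coding total, had the highest share, and Rongchang pig 2 had the lowest.

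Transcripts of the mitochondrial genome made up 16.7% ± 2.53 of the protein-coding total in wild boar and 21.4% ± 4.82 in Rongchang pig (SD, n = 3 each). Without them the ribosomal protein share was 5.68% ± 1.02 in wild boar and 4.66% ± 0.675 in Rongchang pig. In bulk tissue, fewer cells of a type and less RNA per cell cannot be told apart. Red blood cell markers, 5 of 5 present in the table, summed to 522 to 760 TPM in wild boar and 123 to 312 TPM in Rongchang pig without overlap. That sum was almost all HBB, and SLC4A1 was at most 0.0297 TPM with the groups mixed. The T cell list (CD3E, CD3D and PTPRC) summed to 2.41 to 3.88 TPM in wild boar and 4.43 to 5.67 TPM in Rongchang pig, again without overlap. Most of it was PTPRC, whose groups overlapped, as did those of CD3E, at most 0.216 TPM. CD3D alone was lower in every wild boar, at most 0.541 TPM there and at least 1.06 TPM in Rongchang pig. The part of blood or immune cells in the differences below was not tested.

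**Figure D2:**
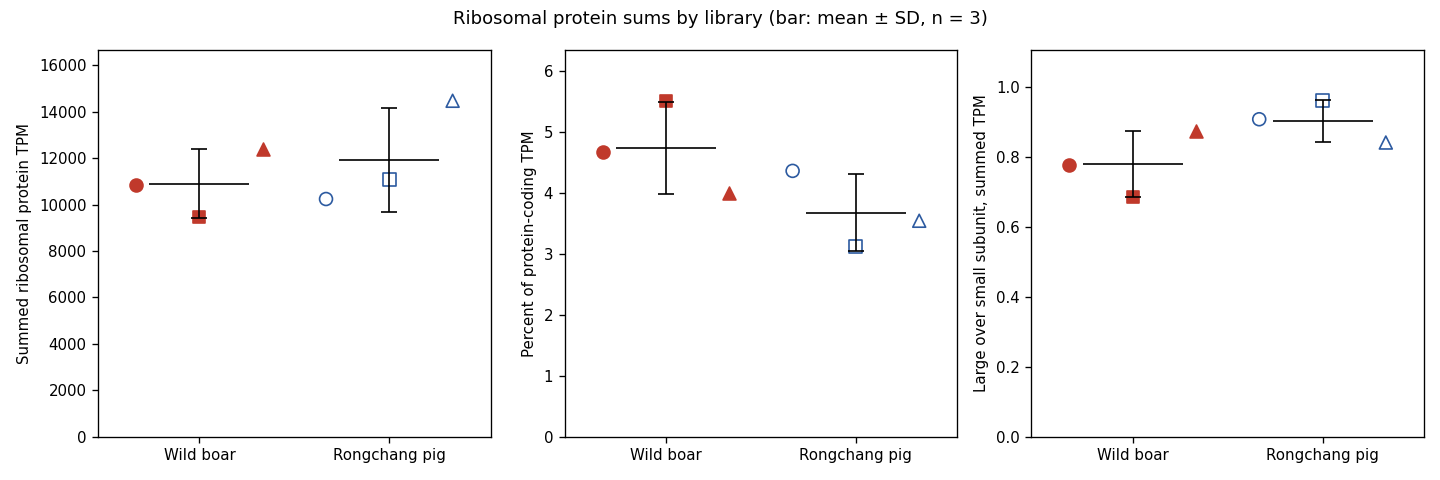
Summed TPM of the ribosomal protein genes, their percent of the protein-coding TPM, and the ratio of summed large to summed small subunit TPM, for libraries 1 to 3 of each breed from left to right, with mean ± SD (n = 3). The groups overlap in all 3 panels, and within wild boar the ratio spans 0.685 in wild boar 2 to 0.873 in wild boar 3.

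The next comparison was wild boar against Rongchang pig, gene by gene. RPS15, RPS20, RPS29 and RPS23 of the small subunit and RPL38 and RPL27 of the large subunit rose in wild boar after rescaling, and the other 40 tested genes did not pass. These 6 are 13% of 46, beside 11.6% of all tested genes called higher, so on this scale their number is close to that of genes in general. None was called lower, beside 7.91% of all genes. That closeness depends on the scaling. With TPM divided by the protein-coding sum, 5 of 46 were called higher, beside 503 of 11752 genes. With that sum taken without mitochondrial genes it was 5 beside 510, and after quantile normalization 4 beside 1013. On deposited TPM 0 of the 46 passed in either direction, beside 0.136% of all genes called higher and 1.46% called lower. The test was limma with a mean-variance trend over all 11752 genes, with Benjamini-Hochberg adjustment. On deposited TPM 3 of the 46 genes had an unadjusted p under 0.05 (6.52%, beside 17.8% of all tested genes), and SE values were 0.38 to 0.42 on the log2 scale. After rescaling 19 had an unadjusted p under 0.05 (41.3%, beside 37.1% of all tested genes), and SE values were 0.11 to 0.58.

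As a group the genes stood above the middle of all genes. Their median log2 fold change was 0.39 after rescaling, against 0.07 for all genes, and -0.19 on deposited TPM, against -0.41 for all genes. After rescaling 37 of 46 lay above the median of all genes, and on deposited TPM 34 did. Several cell type marker lists also lay above the middle of all genes on the rescaled values, and their part in the offset was not tested. The median was 0.52 over 9 cortical neuron markers (3 called higher, CAMK2A, SLC17A7 and NEUROD2), 0.55 over 9 mural cell and fibroblast markers (2 called higher, ACTA2 and TAGLN), 0.47 over 4 endothelial markers (CLDN5 called higher) and 1.22 over 4 tested red blood cell markers, all 4 called higher. It was 0.25 over 5 astrocyte, 0.28 over 3 oligodendrocyte and 0.08 over 5 microglia markers, and below 0 over 4 striatum markers (-0.42) and 2 T cell markers (-0.19). Of all tested genes 11.6% were called higher on this scale. The offset also differed with the libraries used. Wild boar 2 had the lowest log2 rescaling factor of all libraries, -0.82, and Rongchang pig 2 the highest, 0.59. On deposited TPM wild boar 2 was the lowest library for 33 of the 46 genes and Rongchang pig 2 for 3. After rescaling wild boar 2 was the highest library for 36 of the 46 genes and Rongchang pig 2 the lowest for 43, so this order depends on the scaling. The median of the group lay 0.32 above that of all genes with all libraries, 0.20 above it without wild boar 2 and 0.19 without Rongchang pig 2. Without both it was 0.09 and lay 0.04 above that of all genes. Both were picked after the data were seen as the extreme libraries for these genes, so their removal had to lower the offset, and that value is a description only. In that setting 3 of 46 genes, RPS15, RPS20 and RPS29, were called higher, beside 920 of 11323 genes. There 1 of 46, RPS24, was called lower, beside 499 of 11323.

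RPS15, RPS20 and RPS29 lie in the head of the small subunit, the part that swivels as the ribosome moves along the mRNA. RPS15 had 166, 131 and 182 TPM in wild boar and 80.4, 94.5 and 108 TPM in Rongchang pig. Its groups did not overlap, on deposited or on rescaled TPM. The log2 fold change was 1.33 after rescaling (SE 0.19, limma adjusted p = 0.00624) and 0.75 on deposited TPM (SE 0.42, limma adjusted p = 0.315).

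RPS20 had 73.5, 61.2 and 80.9 TPM in wild boar and 19.8, 26.3 and 62.1 TPM in Rongchang pig. Rongchang pig 3 reached the level of wild boar 2, so the groups overlapped on deposited TPM, and Rongchang pig 1 and 2 lay far below. After rescaling, with 85.5, 108 and 72.0 in wild boar and 22.3, 17.5 and 45.2 in Rongchang pig, they did not overlap. The log2 fold change was 1.71 (SE 0.31, limma adjusted p = 0.0109), and 1.14 on deposited TPM (SE 0.42, limma adjusted p = 0.150).

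RPS29, a small zinc-binding protein, had 684, 638 and 745 TPM in wild boar and 348, 489 and 592 TPM in Rongchang pig, with no overlap on either scale. Its log2 fold change was 1.14 after rescaling (SE 0.25, limma adjusted p = 0.0192) and 0.56 on deposited TPM (SE 0.39, limma adjusted p = 0.411). RPS15 and RPS29 were the only tested members above all Rongchang libraries on deposited TPM, 2 of 46, beside 0.408% of all tested genes. The other 8 tested proteins known from the head of the small subunit, a set put together after these values were seen, were not called and ranged after rescaling from 0.07 for RPS25 to 0.77 for RPS28.

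RPS15 and RPS20 passed in all 15 alternatives to the rescaled fit, with RPS15 between 1.05 and 1.46 and RPS20 between 1.28 and 2.09. The 15 include division by the protein-coding sums and quantile normalization, which replace the rescaling. On deposited TPM neither gene passed in any alternative that kept that scaling. The lowest limma adjusted p there was 0.191 for RPS15 and 0.0507 for RPS20, both without the mean-variance trend. RPS29 missed the threshold without the filter on low values (limma adjusted p = 0.0551), without wild boar 2 (0.0544), without Rongchang pig 1 (0.0552) and with a block for the replicate number (0.0547).

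RPS23, a protein of the decoding centre, had 391, 329 and 472 TPM in wild boar and 304, 327 and 347 TPM in Rongchang pig. Its log2 fold change was 0.85 after rescaling (SE 0.23, limma adjusted p = 0.0340) and 0.27 on deposited TPM. RPL38, which the mouse embryo needs to translate a subset of Hox mRNAs, had 268, 224 and 290 TPM in wild boar and 188, 239 and 222 TPM in Rongchang pig. Both genes overlapped between groups on deposited TPM and did not after rescaling. RPL38 was at 0.85 after rescaling (SE 0.21, limma adjusted p = 0.0265) and 0.27 on deposited TPM. RPL27, a large subunit protein, had 233, 159 and 294 TPM in wild boar and 192, 223 and 183 TPM in Rongchang pig, with both the highest and the lowest library among the wild boars. It was at 0.73 after rescaling (SE 0.20, limma adjusted p = 0.0365) and 0.15 on deposited TPM. These 3 calls were the least firm. RPL27 missed the threshold without wild boar 1, 2 or 3 (limma adjusted p = 0.0895, 0.0979 and 0.0907) and without Rongchang pig 2 or 3 (0.0645 and 0.0990). RPS23 missed it when any 1 library other than Rongchang pig 1 was left out (0.0567 to 0.102), and RPL38 without wild boar 1, wild boar 2 or Rongchang pig 3 (0.0666, 0.0778 and 0.0695). RPL27 also missed it when TPM were divided by the protein-coding sum (limma adjusted p = 0.0741), by that sum without mitochondrial genes (0.0627) and after quantile normalization (0.117), and RPL38 after quantile normalization (0.0535). Without the filter on low values RPL27, RPL38 and RPS23 all missed it (0.0691, 0.0567 and 0.0730), and with a block for the replicate number they did too (0.0598, 0.0533 and 0.0723). Just outside the threshold, and named after their values were seen, lay RPL29 at 0.67 (limma adjusted p = 0.0506) and RPS2 at 0.70 (0.0635). RPL29 is a large and RPS2 a small subunit protein, and both passed without the mean-variance trend.

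**Figure D3:**
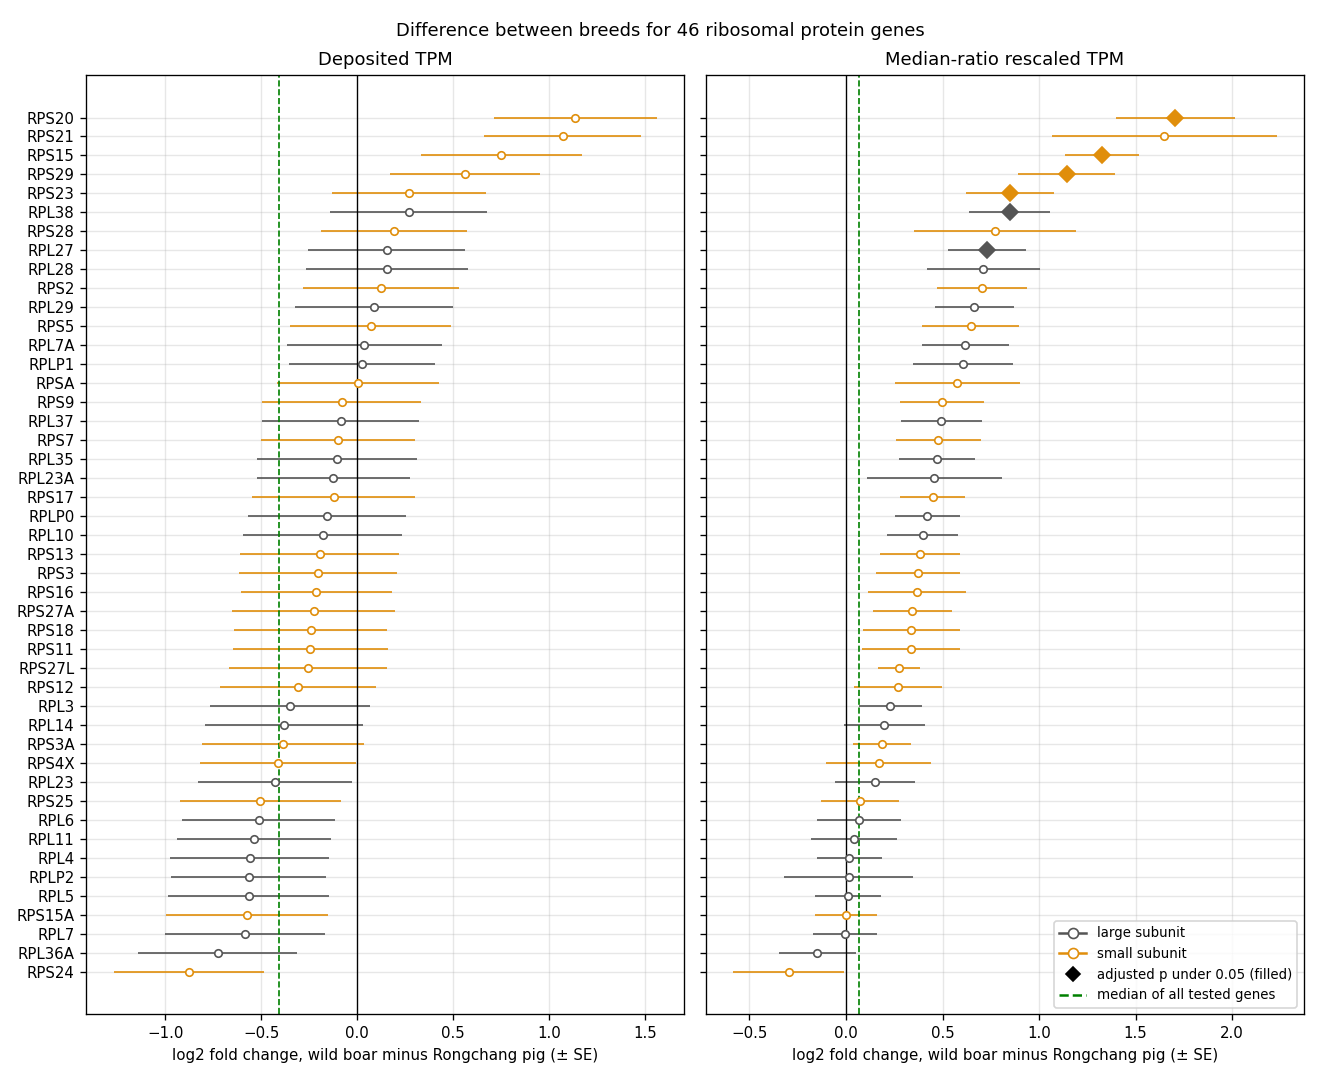
Log2 fold change, wild boar minus Rongchang pig, with SE, for 46 ribosomal protein genes on deposited TPM (left) and after median-ratio rescaling (right). Filled diamonds passed an adjusted p of 0.05, and the dashed line is the median of all tested genes, -0.41 on the left and 0.07 on the right. RPS20 lies at the top and RPS24 at the bottom of both panels.

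**Figure D4:**
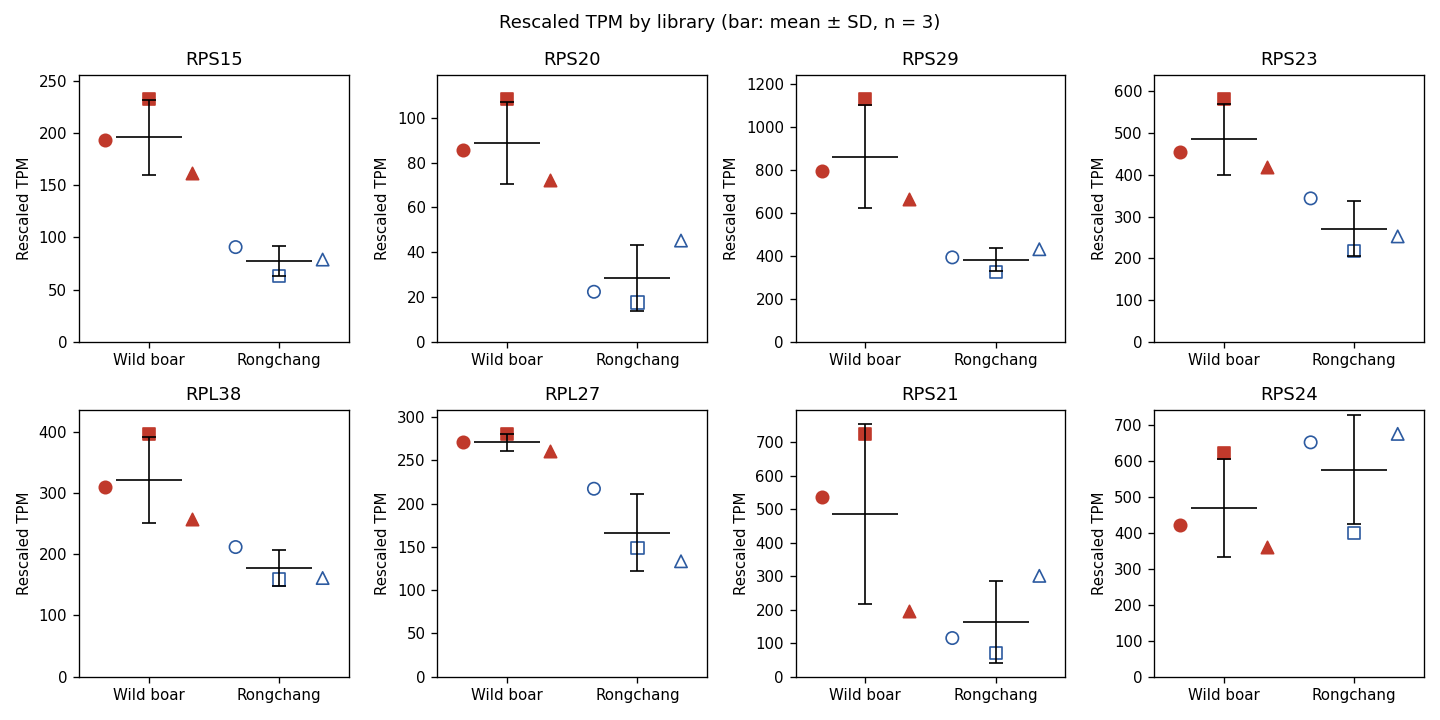
Rescaled TPM of 8 ribosomal protein genes for libraries 1 to 3 of each breed from left to right, with mean ± SD (n = 3). The groups are apart for RPS15, RPS20, RPS29, RPS23, RPL38 and RPL27 and overlap for RPS21 and RPS24.

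RPS21, a short protein of the small subunit, differed most among animals of 1 breed. It had 461, 409 and 220 TPM in wild boar and 102, 105 and 414 TPM in Rongchang pig. Rongchang pig 3 lay among the high wild boar libraries, and wild boar 3 stood between the low and the high ones. Its pooled SD within groups was 0.91 on the log2 scale of deposited TPM, the largest among the 46 genes, whose median was 0.31. The log2 fold change of 1.65 after rescaling missed the threshold (SE 0.58, limma adjusted p = 0.0753). It passed at 2.20 without wild boar 3 (limma adjusted p = 0.0449) and at 2.23 without Rongchang pig 3 (0.0319).

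At the other end stood RPS24, RPL36A, RPL7, RPS15A and RPL5, the 5 genes of the lowest fold change after rescaling. RPS24, a small subunit protein whose mRNA is alternatively spliced in human tissues, had 364, 352 and 407 TPM in wild boar and 578, 602 and 930 TPM in Rongchang pig. Its groups did not overlap on deposited TPM, but its log2 fold change of -0.88 was not called (SE 0.39, limma adjusted p = 0.233). After rescaling the groups overlapped, at -0.30 (SE 0.29, limma adjusted p = 0.484). Without wild boar 2 and Rongchang pig 2, both picked after the data were seen, it was at -0.76 and was called (SE 0.16, limma adjusted p = 0.0342).

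RPL36A, a large subunit protein at the exit site for transfer RNA, had 149, 98.9 and 184 TPM in wild boar and 223, 227 and 245 TPM in Rongchang pig. It was at -0.73 on deposited TPM (limma adjusted p = 0.322) and at -0.15 after rescaling (limma adjusted p = 0.624). RPL11 and RPLP2 also lay below every Rongchang library on deposited TPM, which makes 4 of 46 with RPS24 and RPL36A, 8.7%, beside 17.1% of all tested genes. After rescaling 16 of 46 genes, 34.8%, lay above every Rongchang library, beside 24.0% of all genes, and 0 of 46 lay below, beside 17.6%.

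RPL5 and RPL11 bind 5S ribosomal RNA together, and outside the ribosome they inhibit the p53 ligase MDM2. RPL5 had 104, 64.9 and 123 TPM in wild boar and 113, 135 and 178 TPM in Rongchang pig. RPL11 over RPL5 was 3.24 ± 0.210 in wild boar and 3.20 ± 0.518 in Rongchang pig (SD, n = 3 each), so the difference between breeds was smaller than the spread within them. RPL7, a large subunit protein, was at 0.00 after rescaling and -0.58 on deposited TPM, and RPS15A, a small subunit protein, at 0.00 and -0.57. None of these was called.

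Large and small subunit genes were compared within each library, where scaling has no part. Only the 23 large and 25 small subunit genes with a matched identifier entered the sums, so their ratio does not compare whole subunits. Summed large over summed small subunit TPM was 0.778, 0.685 and 0.873 in wild boar and 0.907, 0.960 and 0.841 in Rongchang pig. Wild boar 3 stood above Rongchang pig 3, so the groups overlapped, at 0.778 ± 0.0940 in wild boar and 0.902 ± 0.0598 in Rongchang pig (SD, n = 3 each). With each gene given equal weight, large subunit genes lay above small subunit genes by 0.16 ± 0.08 on the log2 scale of TPM in wild boar and 0.38 ± 0.11 in Rongchang pig. That comparison overlapped as well, at 0.253 in wild boar 3 and 0.250 in Rongchang pig 3. Its small subunit side includes the paralog RPS27L, the lowest tested gene, at 9.68 TPM in wild boar and 11.7 TPM in Rongchang pig. The large subunit paralogs RPL3L and RPL10L were left out by the filter. RPS27L alone thus adds to the offset between subunits, and the offset without it was not computed.

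By fold change the subunits had like middles and unlike ranges. After rescaling the median was 0.40 over 21 large subunit genes, from -0.15 to 0.85, and 0.38 over 25 small subunit genes, from -0.30 to 1.71. Of the large subunit 2 genes (9.52%) were called higher, and of the small subunit 4 (16%), beside 11.6% of all tested genes, and the difference between subunits was not tested. On deposited TPM the median was -0.18 over the large and -0.20 over the small subunit.

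The make-up of the ribosomal protein pool was then described by the share of each gene in the summed TPM, which is also free of scaling. RPS15, RPS20 and RPS29 took larger shares in wild boar. RPS15 made 1.46% ± 0.0732 of the pool in wild boar and 0.795% ± 0.0526 in Rongchang pig, as mean ± SD with n = 3 each. RPS20 made 0.659% ± 0.0170 in wild boar and 0.286% ± 0.126 in Rongchang pig, and RPS29 made 6.35% ± 0.375 in wild boar and 3.97% ± 0.517 in Rongchang pig. RPS29 is among the most abundant members and RPS20 among the least. RPS24 had a smaller share, 3.45% ± 0.234 in wild boar and 5.84% ± 0.524 in Rongchang pig. In each of these 4 genes the 3 wild boars stood apart from the 3 Rongchang pigs.

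Across the pool 7 of 46 genes had a higher share in every wild boar than in any Rongchang pig, 15.2%, and 11 had a lower one, 23.9%. When all tested genes were set against the same pool, 1.40% were higher and 30.6% lower without overlap. The pool is made of the 48 genes themselves, 46 of them tested, so a larger share of some is a smaller share of others. The counts of members and of all genes thus have different centres. The 7 were RPS2, RPS15, RPS20, RPS23, RPS29, RPL29 and RPL38. The 11 were RPS4X, RPS15A, RPS24, RPS25, RPL4, RPL5, RPL7, RPL11, RPL14, RPL23 and RPL36A, 7 of them of the large subunit. Set against the pool, the genes had a median pooled SD within a breed of 0.17 on the log2 scale, against 0.31 on deposited TPM and 0.29 after rescaling. The pool is their own sum, so this drop is built in at least in part and is a description only. For all genes that SD was 0.41 on deposited TPM, 0.16 after rescaling and 0.30 against the pool.

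**Figure D5:**
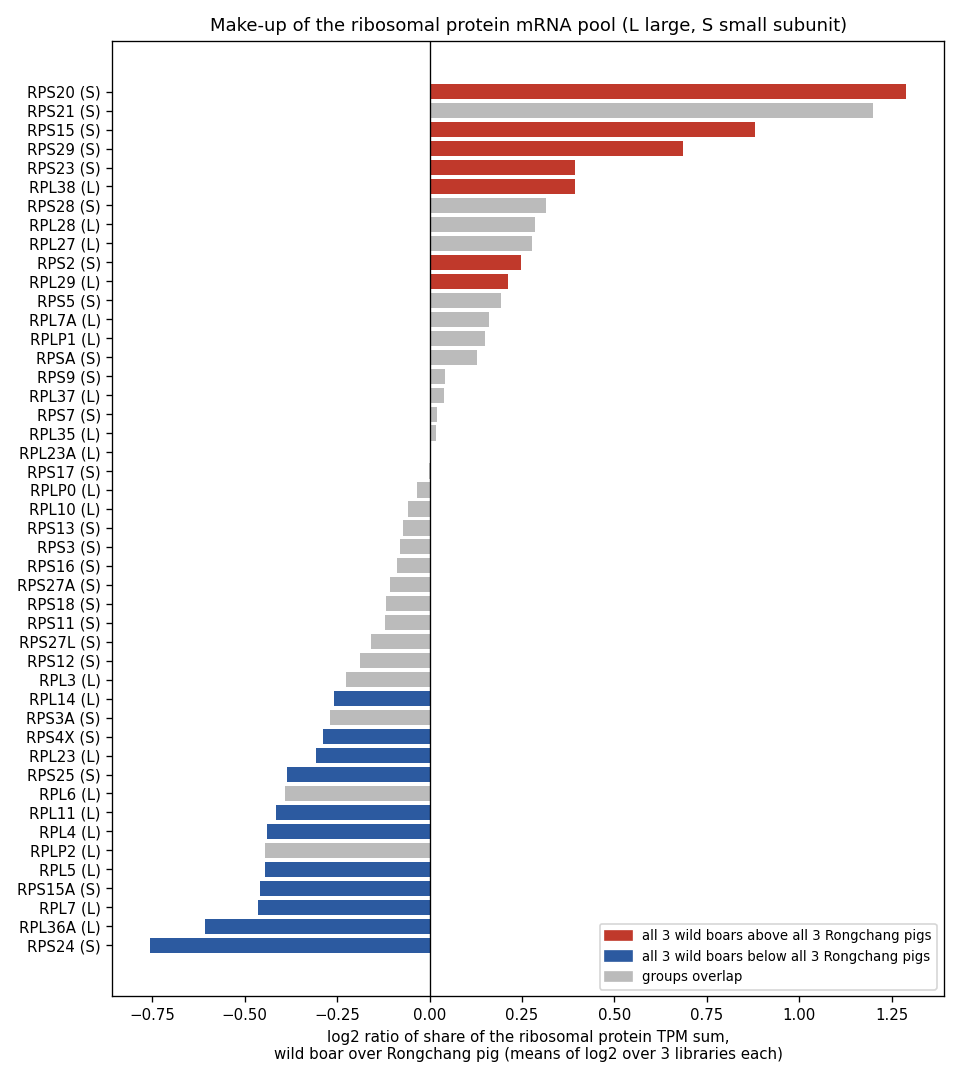
Log2 ratio of the share of each gene in the ribosomal protein TPM sum, wild boar over Rongchang pig, for 46 genes (L large, S small subunit). Red bars mark 7 genes whose share was higher in all 3 wild boars than in all 3 Rongchang pigs, blue bars 11 genes whose share was lower, and grey bars genes whose groups overlap; RPS20 is at 1.29 and RPS24 at -0.76.

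The stalk proteins RPLP1 and RPLP2 form pairs that are held to the ribosome by RPLP0, so their mRNAs can be set against each other. RPLP2 over RPLP1 was 0.311, 0.380 and 0.296 in wild boar and 0.668, 0.494 and 0.363 in Rongchang pig. Rongchang pig 1 was the highest, and Rongchang pig 3 lay below wild boar 2, so the groups overlapped. RPLP2 itself had 250, 228 and 286 TPM in wild boar and 471, 344 and 328 TPM in Rongchang pig, without overlap on deposited TPM, and was not called (log2 fold change -0.57, limma adjusted p = 0.424). After rescaling RPLP0, RPLP1 and RPLP2 were at 0.42, 0.61 and 0.01, none of them called.

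Other genes of the translation pathway were read from the same fit. Of 24 tested translation factors, EEF1A2, EIF3F and EEF1D rose in wild boar after rescaling, and 21 did not pass. EEF1A2, the form of elongation factor 1A found in neurons and muscle, had 115, 90.6 and 158 TPM in wild boar and 73.4, 131 and 108 TPM in Rongchang pig, with overlap on deposited TPM. It was at 0.80 after rescaling (SE 0.14, limma adjusted p = 0.00950). EIF3F, a subunit of initiation factor 3, was at 0.81 (SE 0.15, limma adjusted p = 0.0115), and EEF1D, an exchange factor for elongation factor 1A, at 0.50 (SE 0.14, limma adjusted p = 0.0339). Those 3 are 12.5% of the list, close to the 11.6% of all tested genes called higher on that scale, and its median was 0.13, against 0.07 for all genes.

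Of 9 tested genes with other TOP mRNAs 0 passed, and their median was 0.15 after rescaling. Of all tested genes 11.6% were called higher and 7.91% lower on that scale. FAU, which encodes a ubiquitin-like protein fused to a small subunit protein, was at 0.52 (SE 0.21, limma adjusted p = 0.105). The elongation factor gene EEF2 was at 0.35 (limma adjusted p = 0.138) and TPT1, a growth-related protein gene, at 0.38 (limma adjusted p = 0.176). In that list 1 gene had an unadjusted p under 0.05, beside 37.1% of all tested genes. Among 6 tested relatives of ribosomal proteins outside the rule, 0 passed and 2 had an unadjusted p under 0.05, beside the same 37.1%. RPL26L1, a near copy of RPL26, was at 0.44 (limma adjusted p = 0.0599) and RACK1, a scaffold on the small subunit head, at 0.24 (limma adjusted p = 0.250).

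Of 27 tested ribosome assembly genes only RRP12, a factor of small subunit export, passed, at 0.45 after rescaling (SE 0.13, limma adjusted p = 0.0389). NOP58, a protein of small nucleolar particles that guide ribosomal RNA methylation, was at -0.41 (SE 0.13, limma adjusted p = 0.0539), and the assembly factor gene BYSL was at 0.32 (limma adjusted p = 0.0586). Their list's median was 0.05, and its 1 call is 3.7%, beside 11.6% of all tested genes called higher. Of 14 tested genes in signalling to ribosomal protein mRNAs 2 passed after rescaling, 14.3%, close to the 11.6% of all tested genes called higher. TSC2, an inhibitor of mTOR signalling, was at 0.51 (SE 0.13, limma adjusted p = 0.0282). MYC, a transcription factor of growth genes, was at 0.32 (SE 0.10, limma adjusted p = 0.0489), with 1.26, 0.861 and 1.77 TPM in wild boar and 0.872, 1.5 and 1.47 TPM in Rongchang pig. RPTOR, an mTOR partner, was at 0.44 (limma adjusted p = 0.0501). On deposited TPM none of these 5 lists held a called gene, beside 0.136% of all tested genes called higher and 1.46% called lower.

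Circular RNAs, closed loops made by back-splicing, were looked for at ribosomal protein genes as a second readout. Of the 11375 deposited circRNAs 2 lay inside ribosomal protein genes, placed with RefSeq gene positions and without a comparison of strands. The build of the circRNA table is not given in the sources used here. Of all its circRNAs 99.31% lay inside a RefSeq gene, and 47.24% did after a shift of 1000000 bases. The circRNA in RPSA (ssc_circ_3629), the gene of a small subunit protein also described as a laminin receptor, had 1.22, 1.30 and 0.749 TPM in wild boar and 1.5, 2.44 and 1.74 TPM in Rongchang pig.

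That circRNA was lower in every wild boar than in any Rongchang pig (exact two-sided permutation p = 0.1, n = 3 each, the smallest such a design allows), beside 18.2% of all circRNAs above 0 in at least 3 libraries. As a share of the summed circRNA TPM it made 0.0535% ± 0.0158 in wild boar and 0.0625% ± 0.0186 in Rongchang pig, with overlap (exact two-sided permutation p = 0.6, n = 3 each). The linear RPSA mRNA had 86.8, 72.5 and 134 TPM in wild boar and 97.1, 63.0 and 137 TPM in Rongchang pig, with the groups mixed. The second circRNA lay in RPS10, 1 of the genes with no matched identifier, and had at most 0.190 TPM in any library.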

How the data were processed

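Total RNA of 3 wild boar and 3 Rongchang pig brains was depleted of ribosomal RNA and made into stranded libraries, per the labels' protocols. STAR 2.6.0c and BWA 0.7.17 are named, without roles, in the submitters' processing notes. The sources used here give no counting tool, annotation or genome build. The authors deposited 1 TPM table of coding genes and 1 of circRNAs, and TPM holds no read depth. The labels number the animals. P-values rest on the spread between these 6 libraries, which may be technical in part and on deposited TPM is not that of the single gene.

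Identifiers were matched to symbols for 14821 of 21280 genes. Genes with at least 1 TPM in at least 3 libraries (11752) were tested on log2(TPM + 1), which understates changes of low genes, with limma 3.58.1 in R 4.3.3 (mean-variance trend, two-sided, Benjamini-Hochberg adjustment, threshold 0.05). The fit was made on deposited TPM and on TPM divided by median-ratio factors from genes above 0 in all libraries. The fit was also run on simulated data, with noise drawn independently for each gene and no shift shared by a library. Rescaling was not applied there, so that run says nothing about the rescaling step. Single circRNA values were compared with exact permutation tests (SciPy 1.17.1). On deposited TPM limma took the spread wholly from genes of like level, so SE there are nearly equal among genes. RPS21 and RPS15, with pooled SD within groups of 0.91 and 0.23, had SE of 0.41 and 0.42.

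Named genes were all called members, the 5 highest and lowest by level and by rescaled fold change, members with a paralog, and per other list the 3 of lowest p. Members and lists were chosen with earlier results of these data known. Replicate numbers are names only. Alternatives were other scalings, pseudocount 0.1, no filter, no trend, a replicate block, other member sets and leaving out libraries. Protein length and promoter or protein sequence were not used here.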

Additional observations from a re-analysis of the deposited data

How the results depend on the processing

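On deposited TPM 0 ribosomal protein genes passed, and dividing by the protein-coding sum, by that sum without mitochondrial genes, or quantile normalization gave 5, 5 and 4. Their median log2 fold change was then 0.30, 0.21 and 0.14, against -0.19, and all genes called were 1145, 2028 and 2368, against 188. Without the filter, without the trend and with the replicate block 6, 285 and 70 of all genes were called. Leaving out 1 library on deposited TPM gave 0 to 1 ribosomal protein genes (RPS21, without wild boar 3) and 26 to 426 of all genes, and leaving out wild boar 2 and Rongchang pig 2 together gave 29. After rescaling, 6 ribosomal protein genes and 2292 of all genes were called. The protein-coding sum gave 1145 of all genes, quantile normalization a median of 0.14 against 0.39, and no filter 2 ribosomal protein genes. Leaving out 1 library gave 2 to 6 ribosomal protein genes (3 without wild boar 1, 2 without wild boar 2) and 817 to 2156 of all genes, fewest without wild boar 2. The median was then 0.24 to 0.53. Leaving out both number 2 libraries gave a median of 0.0874 and 1419 of all genes. With the replicate block 2 ribosomal protein genes (RPS15 and RPS20) and 1295 of all genes were called; same-numbered libraries correlated at 0.10, -0.04 and -0.01 in their deviations from the group means, so the numbers were not taken as pairs. With rescaling factors from the tested genes, a setting chosen after the data were seen, the same 6 genes passed, beside 1043 of all genes called higher. Lower genes were 91.5% of all calls on deposited TPM, 40.5% after rescaling, 54.6% with these factors, 56.1% and 74.9% with the sums and 57.2% after quantile normalization. Of 285 values of single named genes under alternatives to the rescaled fit, 30 lost their call, 3 gained one, and 15 uncalled values changed sign. Of 266 on deposited TPM, where none was called, 15 gained a call and 21 changed sign. TPM carries no depth, so what depth limits is unknown. The causes of these dependences were not tested. Protein length and sequence features, planned at the outset, were not run.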
